A study of Arabidopsis thaliana with 12 samples.

Results

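PDF2.1, AT1G47540 and AT2G15010 are 3 nuclear Arabidopsis thaliana genes grouped here as small cysteine-rich, defensin-like proteins. They were chosen by their signal in one comparison: each was higher in dark-grown atbzip16 seedlings than in dark-grown wild type. Each gene is named alone by 1 probe set, so the group is 3 of the 13286 genes that a probe set names alone on this array. PDF2.1 (AT2G02120, also called low-molecular-weight cysteine-rich 70) and AT2G15010 lie on chromosome 2, and AT1G47540 lies on chromosome 1. For AT1G47540 and AT2G15010 the annotation used here gives a locus identifier and no functional name, so their place in the group rests on the grouping itself.

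Plant defensins are short secreted peptides whose fold is held together by disulfide bonds between paired cysteines. Many of them inhibit the growth of fungi, and some accumulate in seeds, from which they are released at germination in radish. Thionins and knottin-type protease inhibitors are further families of small disulfide-bonded plant peptides with roles in defence. bZIP16 is a G-group basic leucine zipper transcription factor that binds G-box elements in promoters.

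Oligonucleotide arrays measured total RNA of above-ground tissue from seedlings aged 4 days. The wild type was Landsberg erecta (Ler), and the mutant atbzip16 has the same cultivar, with no allele named in the labels. Both were grown either etiolated, in darkness, or in red light of 0.5 µmol per m2 and second with long days. Each of the 4 groups had 3 biological replicates, 12 arrays in all, and all groups share the same age, medium and cultivar. The free-text descriptions of some samples name the other light condition, and the titles, source names and treatments were followed instead.

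The values are linear probe set signals, and no detection calls were used. The median signal of an array was between 148.3 and 186.1. Probe sets whose geometric mean signal over the 12 arrays fell in the lowest 30% (under 41.57, called the low-signal limit below) were left out of the tests, which left 15922. All 3 genes passed this filter, but AT1G47540 passed only through the group in which it was high. Its geometric mean was 57.6 over all arrays and 33.7 without the dark atbzip16 arrays, against 84.5 for PDF2.1 and 169.3 for AT2G15010 without them. Of the green-tissue marker genes, the photosystem antenna genes LHCB4.1 and LHCB4.2 were named alone by a probe set. Their summed signal lay between 10831 and 13888 over the dark arrays and between 32606 and 50620 over the red-light arrays. The 3 root markers named alone by a probe set, including the root hair expansins EXPA7 and EXPA18, had a summed signal of at most 502.5 on any array. Of these, AT1G30870 and EXPA18 were tested and were called higher in red light with replicate number as a block, and not without it (limma adjusted p = 0.085 and 0.0992).

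PDF2.1, a plant defensin of the PDF2 class, had signals of 149, 465.6 and 402.2 in replicates 1, 2 and 3 of dark-grown Ler. In dark-grown atbzip16 the signals were 1155.3, 2622.2 and 2370.8. In red light they were 23.6, 31 and 32.1 in Ler, and 106.4, 32.7 and 96.1 in atbzip16. The order of the groups was therefore dark atbzip16, dark Ler, red-light atbzip16 and red-light Ler, and no 2 groups overlapped. The gap between the last pair was narrow, 32.7 against 32.1, and all 3 red-light Ler arrays lay under the low-signal limit. Replicate 1 was the lowest array within both dark groups.

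AT2G15010 varied little between replicates in the dark. Its signals were 1088, 1105.4 and 908.3 in dark-grown Ler and 3614.9, 3590.6 and 3277.7 in dark-grown atbzip16. In red light they fell to 99.6, 58.4 and 58.6 in Ler and to 80.9, 46.3 and 81.8 in atbzip16. The dark groups did not overlap with each other or with the red-light groups, while the red-light groups overlapped. The standard deviation of its log2 signal was 0.16 in dark Ler and 0.08 in dark atbzip16, and 0.44 and 0.47 in red-light Ler and atbzip16. For PDF2.1 it was 0.89, 0.64, 0.24 and 0.94 in the same order.

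AT1G47540 was well above the low-signal limit in 1 group alone. Its signals were 59.6, 19.5 and 56.3 in dark-grown Ler and 356.6, 258.3 and 258.5 in dark-grown atbzip16. In red light they were 8.4, 9.9 and 60.8 in Ler and 80.5, 29.8 and 70.1 in atbzip16. The dark atbzip16 arrays were above all the others, and the remaining 3 groups overlapped one another around the low-signal limit.

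The place of each probe set among all probe sets of an array does not depend on the scaling of the arrays. In the dark it restates the values that chose the genes, so it is a description. Signals of different probe sets depend on their probes, so these places are compared between groups and not between genes. AT2G15010 stood between the 95.8th and the 96.3rd percentile in dark atbzip16 and between the 82.8th and the 86.0th in dark Ler. PDF2.1 stood between the 86.2nd and the 94.5th percentile in dark atbzip16 and between the 48.3rd and the 69.9th in dark Ler. AT1G47540 stood between the 57.4th and the 64.5th percentile in dark atbzip16 and between the 16th and the 34.2nd in dark Ler. In red light the highest percentile that any of them reached was 43.6, for AT2G15010 in Ler.

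**Figure D1:**
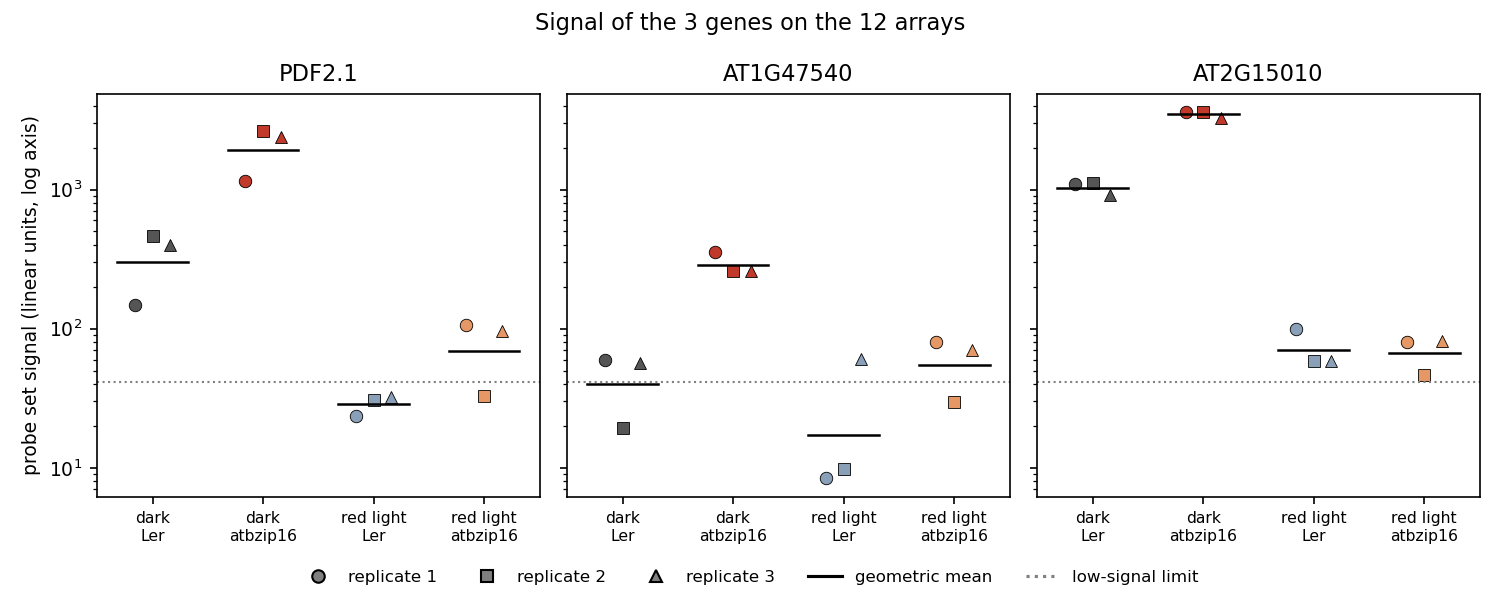
Signal of PDF2.1, AT1G47540 and AT2G15010 on each of the 12 arrays (log axis), by group, with a symbol for each replicate number, a bar at the geometric mean of the 3 arrays and a dotted line at the low-signal limit of 41.57. The dark atbzip16 arrays are the highest for each gene, and most red-light arrays lie near the dotted line.

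In the dark, the comparison that chose the genes, PDF2.1 was 6.36-fold and AT2G15010 3.39-fold higher in atbzip16 than in Ler as ratios of geometric means (n = 3 arrays per group). AT1G47540 had geometric means of 287.7 in atbzip16 and 40.3 in Ler. The second lies under the low-signal limit, so the size of this difference is uncertain: its log2 value was 2.84 as measured and 2.39 with a pseudocount of 16, where that of PDF2.1 was 2.67 and 2.60. These values describe the choice and carry no test, and neither do the calls that made it. Between arrays of the same replicate number the log2 difference ran from 2.49 to 2.95 for PDF2.1 and from 1.70 to 1.85 for AT2G15010. It ran from 2.2 to 3.73 for AT1G47540. Over all probe sets, limma called 0.0314% higher in atbzip16 in the dark, and 1.26% with replicate number as a block. Without the block AT2G15010 was among these calls and PDF2.1 and AT1G47540 were not. With the block all 3 were, and these calls belong to the choice of the genes.

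Red light against dark was asked as 1 effect averaged over both genotypes. In a balanced design the estimate of this average is independent of that of the genotype difference in the dark. Both share 1 estimate of the spread, so the p values of the light response are not free of the choice. AT2G15010 and PDF2.1 fell steeply in red light. AT2G15010 had a log2 difference of -4.79 ± 0.18 (standard error, 3 arrays in each of 4 groups, limma adjusted p = 2.71e-09). PDF2.1 had one of -4.10 ± 0.35 (limma adjusted p = 4.21e-06). AT1G47540 had a difference of -1.81, given as a description, since the gene entered the fit only through the dark atbzip16 arrays that also chose it.

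The calls of AT2G15010 and PDF2.1 stand beside a background in which 12.9% of the 15922 probe sets were called lower and 11.8% higher, and the median over all probe sets was -0.05. With replicate number as a block both were again called lower, as were 20.8% of all probe sets. AT2G15010 had the 52nd and PDF2.1 the 77th lowest estimate of the 15922. In these whole-tissue samples, fewer cells of a kind and less RNA per cell cannot be told apart.

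The fall can also be read within each genotype, as a description, since the dark arrays took part in the choice. AT2G15010 was 14.7-fold lower in red light in Ler and 51.8-fold lower in atbzip16. PDF2.1 was 10.6-fold lower in Ler, where its red-light signals lay under the low-signal limit, and 27.8-fold lower in atbzip16. AT1G47540 had geometric means under the low-signal limit in both light conditions in Ler, 40.3 in the dark and 17.2 in red light, and the groups overlapped. In atbzip16 it was 5.21-fold lower in red light, and the groups did not overlap. The difference between these light responses contains the dark contrast that chose the genes and was not tested for them.

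The estimate of the difference between genotypes in red light used none of the arrays that chose the genes. The intervals and p values of this difference use a spread estimated over all groups, including the dark arrays. They are therefore not free of the choice. AT2G15010 and PDF2.1 did not pass the test in red light, and AT1G47540 is described only. AT2G15010 had nearly the same signal in both genotypes, with geometric means of 69.9 in Ler and 67.4 in atbzip16. Its log2 difference of -0.05 had a 95% interval from -0.59 to 0.49 (limma adjusted p = 0.999). Whether this differs from the dark difference was not tested, since the latter chose the gene.

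PDF2.1 was higher in atbzip16 in 3 of 3 replicate pairs, by log2 differences from 0.08 to 2.17, with geometric means of 69.4 and 28.6. Its log2 difference of 1.28 had a 95% interval from 0.19 to 2.36 and did not pass adjustment over all probe sets (limma adjusted p = 0.901). AT1G47540 was also higher in 3 of 3 pairs, by 0.21 to 3.26, with geometric means of 55.2 and 17.2, and its groups overlapped. Its log2 difference of 1.69 is given as a description, since the gene entered the fit only through the dark atbzip16 arrays.

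Few probe sets passed in red light at all, 0.0377% in either direction and 0.546% with replicate number as a block. With the block, PDF2.1 had a limma adjusted p of 0.301. PDF2.1 and AT1G47540 had red-light signals near or under the low-signal limit. With a pseudocount of 16 AT1G47540 had a log2 difference of 0.99 in place of 1.69. Without replicate 1 of every group the log2 difference was 0.83 for PDF2.1 and 0.90 for AT1G47540, and without 1 array that of AT1G47540 ranged from 1.17 to 2.60.

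Of 120 other defensin, thionin and low-molecular-weight cysteine-rich genes listed by symbol or synonym in the gene table, 14 were named alone by a probe set. Of these, 6 passed the low-signal filter: LCR67, LCR68, LCR69, PDF1.2b, PDF1.4 and PDF2.5. In the averaged light response limma called 2 of the 6 lower and 0 higher, with a median log2 difference of -0.70 against -0.05 over all probe sets, of which 12.9% were called lower. With replicate number as a block 3 were called lower, and 20.8% of all probe sets.

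LCR67, the defensin also called PDF1.1, had the strongest dark signals of the defensins that fell. Its signals were 4257.1, 7649 and 7001 in dark-grown Ler and 13395.5, 17586.8 and 16001 in dark-grown atbzip16. In red light they were 254.4, 175.5 and 145.5 in Ler and 147.7, 682.6 and 805.9 in atbzip16. The dark groups did not overlap, and the red-light groups did.

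LCR67 fell by 5.10 on the log2 scale in red light (standard error 0.35, limma adjusted p = 5.37e-07). In the dark it was 2.55-fold higher in atbzip16, in 3 of 3 replicate pairs, and did not pass (limma adjusted p = 0.637, and limma adjusted p = 0.126 with the block). In red light its log2 difference between genotypes was 1.21 (limma adjusted p = 0.907), with replicate 1 going the other way. Without red-light atbzip16 replicate 1 it was 1.99 and passed (limma adjusted p = 0.0247).

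PDF1.2b, a defensin of the jasmonate- and ethylene-induced PDF1.2 group, had dark signals of 121.4, 257 and 160.6 in Ler and 347.2, 338.5 and 325 in atbzip16. It fell in red light (log2 difference -2.10 ± 0.52, limma adjusted p = 0.00979). The suffix of its probe set marks probes that can match other transcripts, so its signal may include RNA of related defensins.

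PDF1.4 had signals of 948.7, 216.2 and 178.3 in dark-grown Ler and 1929.4, 359.2 and 305.5 in dark-grown atbzip16, so replicate 1 was far above the others in both. Its averaged light response of -1.27 did not pass (limma adjusted p = 0.0937), and did with replicate number as a block (limma adjusted p = 0.000191). PDF2.5 had an averaged light response of 0.62 that did not pass (limma adjusted p = 0.165). For the difference between genotypes, 0 of the 6 passed by limma in the dark and 0 in red light, with or without the block. Without the block, LCR67 was the 1 gene of the 6 with an unadjusted p under 0.05 in each of these comparisons. Of all 15922 probe sets, 1003 had such a p in the dark and 817 in red light.

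**Figure D2:**
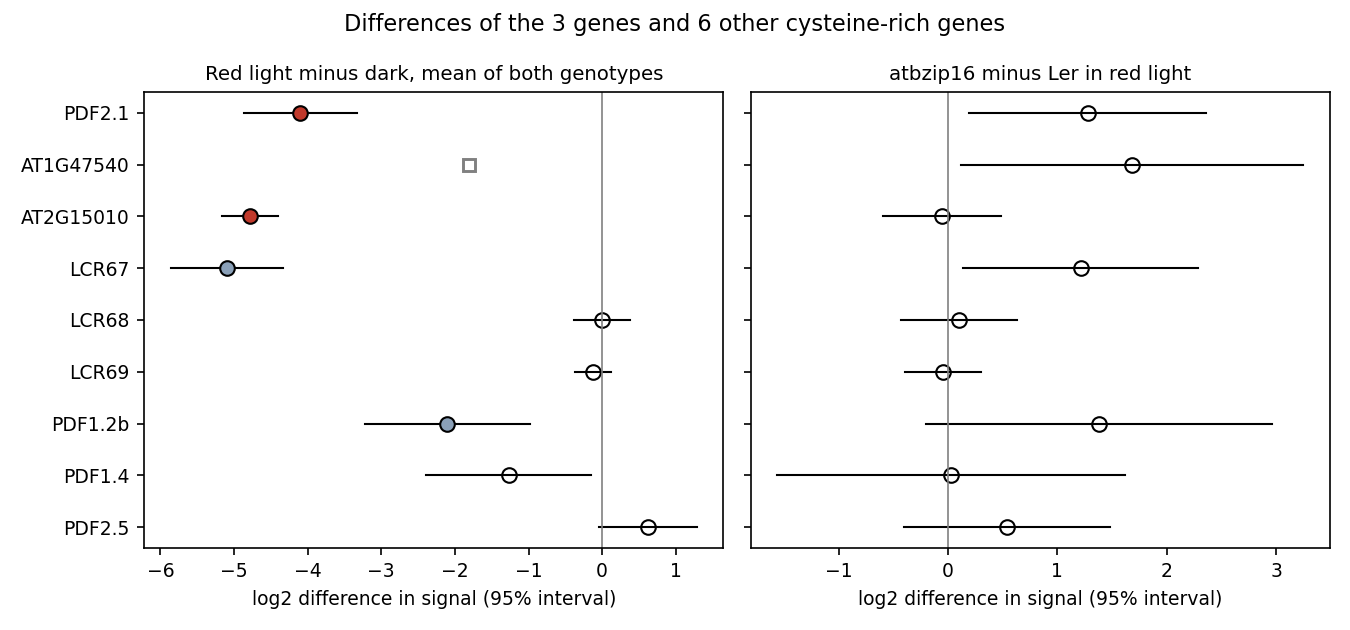
Log2 difference in signal with its 95% interval from limma, for red light minus dark averaged over genotypes (left) and for atbzip16 minus Ler in red light (right). The 3 genes are at the top and the 6 other tested cysteine-rich genes below; filled circles had an adjusted p under 0.05. On the left PDF2.1, AT2G15010, LCR67 and PDF1.2b are filled. AT1G47540 is a square with no interval there, since its light response is given as a description. On the right none is filled. The circle and interval of AT1G47540 there are a description and not a test result. The gene passed the low-signal filter only through the dark atbzip16 arrays.

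PDF2.1 lies in a run of related defensin genes on chromosome 2, which allows a comparison within 1 subfamily. LCR68, also called PDF2.3, is the next gene in the table, and LCR69, also called PDF2.2, lies on the other side with 2 genes between. LCR69 had signals between 5121.7 and 7563.4 in dark-grown Ler, between 5208.6 and 5957.4 in dark-grown atbzip16, and between 4770.1 and 6327.2 in red light. LCR68 lay between 1599.7 and 3090.6 over all 12 arrays. The signals of both neighbours overlapped across the 4 groups.

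The averaged light response was -0.12 for LCR69, with a 95% interval from -0.37 to 0.12, and -0.01 for LCR68, with one from -0.38 to 0.37. Neither passed (limma adjusted p = 0.464 and 0.988). For PDF2.1 the 95% interval of the same response was from -4.87 to -3.33. The difference between the responses of PDF2.1 and its neighbours was not tested. LCR72, also called PDF2.6 and from the same run, was under the low-signal limit, with a highest signal of 46.3.

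**Figure D3:**
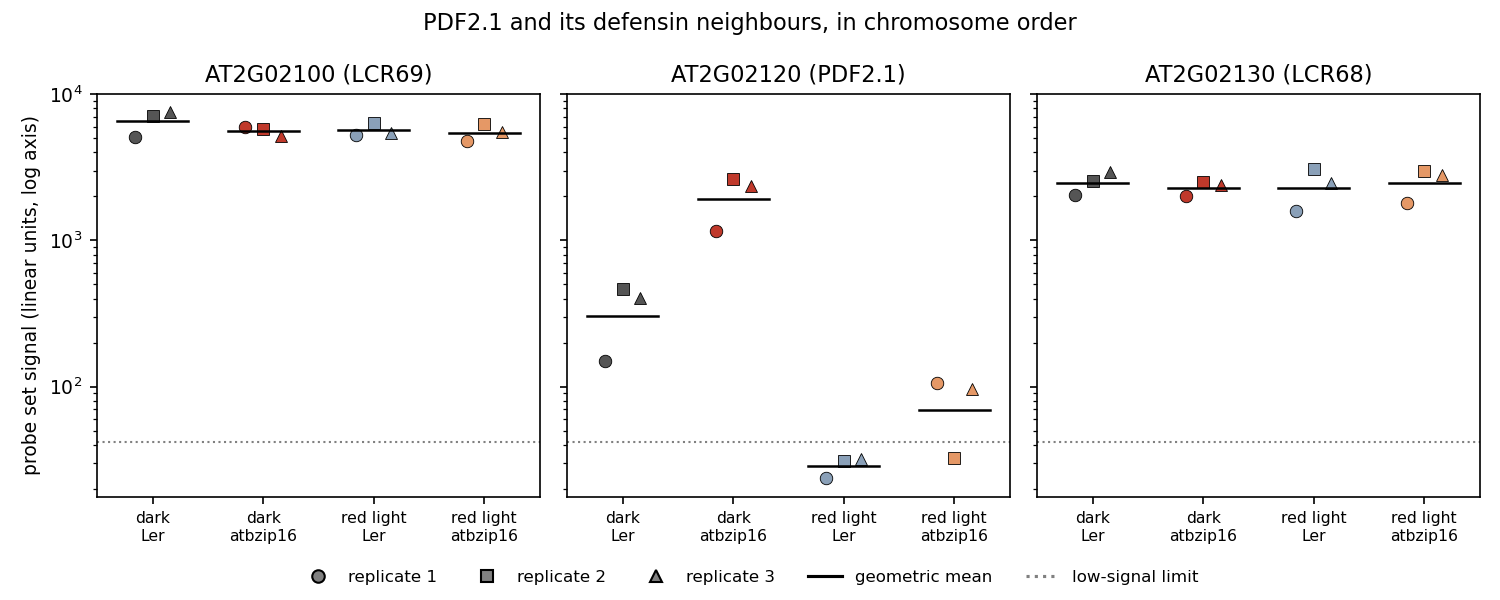
Signal (log axis) of PDF2.1 and of its defensin neighbours LCR69 and LCR68 on the 12 arrays, by group, with a symbol for each replicate number, a bar at the geometric mean and a dotted line at the low-signal limit. LCR69 and LCR68 keep to 1 level over the 4 groups, while PDF2.1 spans from 23.6 to 2622.2.

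The tested neighbours of the other 2 genes had smaller averaged light responses than these genes. AT1G47530, next to AT1G47540, had an averaged light response of -0.09 (limma adjusted p = 0.568), and AT1G47570, with 3 genes between, fell by 0.72 (limma adjusted p = 0.00187). AT2G15000, next to AT2G15010, had one of -0.34 (limma adjusted p = 0.157). None of these 3 neighbours passed for the genotype in the dark or in red light. AT2G15020, on the other side of AT2G15010 with 7 genes between, was under the low-signal limit and was not tested.

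Genes made late in seed development were followed beside the 3 genes. Of 23 such genes listed, 8 were named alone by a probe set and tested. They were the vicilin-like storage protein PAP85, the oleosin OLEO3, the late embryogenesis abundant genes M10 and M17, AT2G28490, AT3G01570, AT3G15670 and AT5G44310. All 8 fell in the averaged light response by limma, with a median log2 difference of -5.70, where 12.9% of all probe sets were called lower. Their summed signal lay between 26420 and 52962 in dark-grown Ler and between 68809 and 97088 in dark-grown atbzip16. It lay between 792.7 and 1459.5 in red light, where the genotypes overlapped. In red light 0 of the 8 passed for the genotype by limma without the block. There 3 had an unadjusted p under 0.05, as did 817 of all 15922 probe sets. Of these 3, M17 was higher in atbzip16, and M10 and AT5G44310 were lower. With the block AT5G44310 was lower in atbzip16 (log2 difference -0.999, limma adjusted p = 0.0272).

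In the dark 7 of the 8 had a higher estimate in atbzip16, with a median of 1.28. None passed by limma without the block, where 6 had an unadjusted p under 0.05, as did 1003 of all 15922 probe sets. With the block 2 were higher, PAP85 (1.09, limma adjusted p = 0.0154) and AT5G44310 (1.51, limma adjusted p = 0.000859), against 1.26% of all probe sets. OLEO3 was the exception, at -0.36. The part of seed tissue or of seed-stored RNA in the values of PDF2.1, AT1G47540 and AT2G15010 was not tested.

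The replicates differed in how these genes lined up. In both dark genotypes the 7 seed genes other than OLEO3 were highest in replicate 1, with PAP85 at 21600.9, 10988.5 and 10913.4 in Ler. PDF2.1, LCR67 and OLEO3 were lowest in replicate 1 of both dark genotypes. AT1G47540 was highest in replicate 1 of both, by little in Ler (59.6, 19.5 and 56.3). AT2G15010 was highest in replicate 1 of dark atbzip16 (3614.9, 3590.6 and 3277.7) and not of dark Ler.

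**Figure D4:**
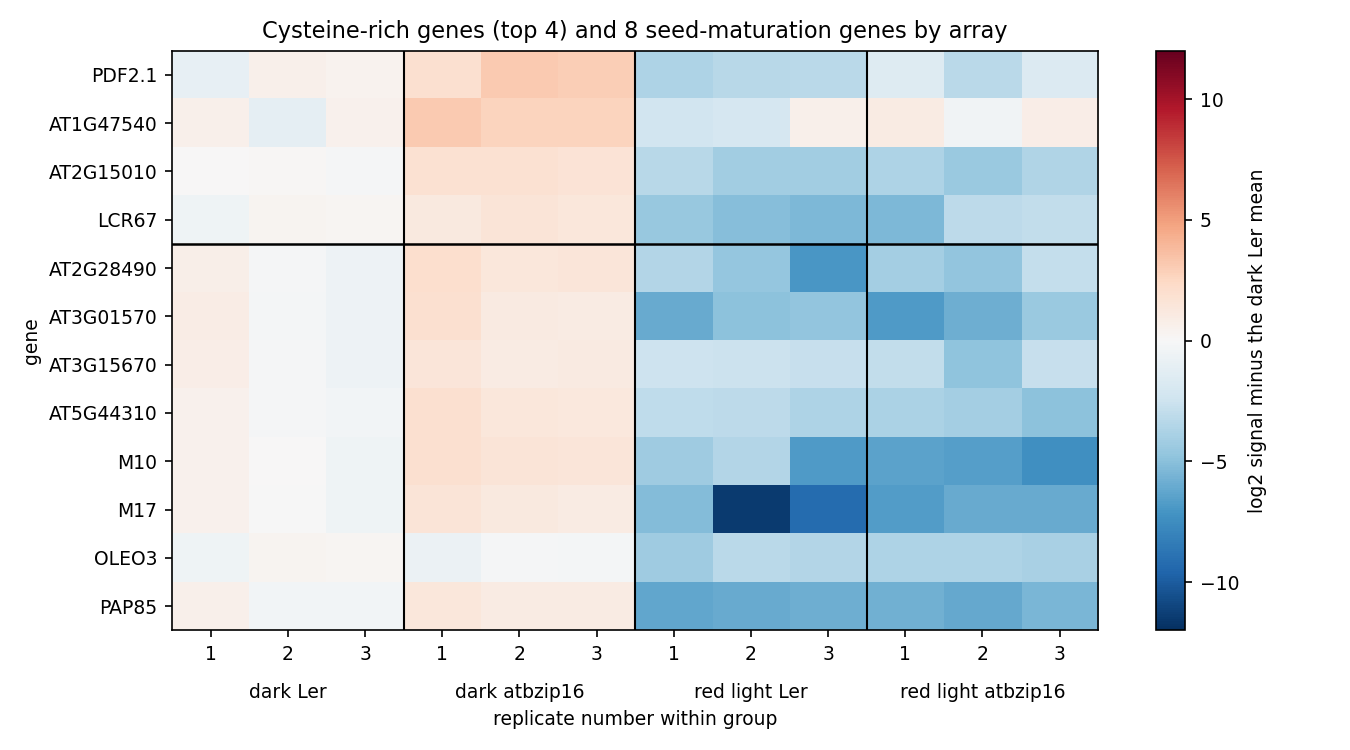
Log2 signal on each of the 12 arrays minus the mean of the 3 dark Ler arrays, for PDF2.1, AT1G47540, AT2G15010 and LCR67 (above the line) and for 8 seed-maturation genes (below it). Columns are arrays by group and replicate number; red is above and blue below the dark Ler mean, and the dark atbzip16 columns are red for all genes but OLEO3.

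The genes whose log2 signal was most like each of the 3 over the 12 arrays were found among 8682 other named probe sets. These correlations are descriptions: the 12 arrays fall into 4 groups, so a shared light or genotype difference alone makes r high. For AT2G15010 the 5 most like were AT5G59170 (Pearson r = 0.99), AT1G54870 (0.99), the dehydrin gene LEA (AT2G21490, 0.99), the brassinosteroid transcription factor BIM1 (0.99) and AT1G27990 (0.99). AT5G59170 had geometric means of 548.9 in dark Ler, 1297 in dark atbzip16, 98.6 in red-light Ler and 97.9 in red-light atbzip16. Its deviations from the group means also followed those of AT2G15010 (r = 0.95), as did those of AT1G54870 (0.83) and LEA (0.70). Those of BIM1 (0.43) and AT1G27990 (0.36) did so less. The genes were picked by an r that contains these deviations, so the deviations are a description too. The log2 standard deviation of AT2G15010 was 0.44 and 0.47 in red-light Ler and atbzip16. In dark Ler and atbzip16 it was 0.16 and 0.08, so its deviations came mostly from the red-light arrays.

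For PDF2.1 the 5 most like were BIM1 (Pearson r = 0.95), the beta-glucosidase BGLU19 (0.95), the IQ-domain gene IQD22 (0.94), AT2G16595 (0.94) and AT2G15010 (0.93). BGLU19 had geometric means of 750.3 in dark Ler, 3461 in dark atbzip16, 90.0 in red-light Ler and 152.5 in red-light atbzip16. For AT1G47540 they were AT1G15940 (0.93), AT5G18490 (0.90), AT5G01940 (0.88), the asparaginase gene ASPGB1 (0.88) and AT3G12340 (0.87). These 5 changed far less than AT1G47540 did: ASPGB1, for example, had geometric means of 2097 in dark Ler, 3871 in dark atbzip16, 1781 in red-light Ler and 2351 in red-light atbzip16.

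Among themselves, PDF2.1 and AT2G15010 had r = 0.93, PDF2.1 and AT1G47540 0.78, and AT2G15010 and AT1G47540 0.66. Within groups the deviations of the 3 genes hardly followed one another (r = 0.27, 0.10 and -0.07 in the same order). AT1G47540 ranked 353rd by likeness to PDF2.1 and 1006th by likeness to AT2G15010. LCR67 ranked 15th by likeness to PDF2.1 and 49th by likeness to AT2G15010, with r = 0.91 and 0.95.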

How the data were processed

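The authors deposited MAS5 signals, a linear intensity for each probe set, per the submitters' processing notes, with no version or settings given in the sources used here. Each array had been scaled to a common mean (498.9 to 499.8 without the lowest and highest 2%). Groups came from the sample titles. No pseudocount was added before log2. The 64 controls and the 30% of the other 22746 with the lowest geometric mean were left out.

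limma 3.58.1 (R 4.3.3) fitted the 4 group means to all 12 arrays, with a variance trend in eBayes. P values are two-sided and Benjamini-Hochberg adjusted over all 15922 probe sets, and calls needed an adjusted p under 0.05. The script was tested on simulated data. Same-numbered arrays of different groups deviated together (18 pairs, r from 0.164 to 0.505), most of all those of replicate 1 (median r 0.374). The median r was 0.181 for same-numbered arrays of replicates 2 or 3, and 0.164 for replicate 2 with replicate 3. Replicate 1 thus stood apart, and a pairing by number among the others was hardly seen. Values with replicate number as a block are given where they change the call of a tested result named here.

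Probe sets were named through the platform annotation (14016 listed, 13513 with 1 gene, 503 with several, 13436 matched by gene ID) and a TAIR10.1 gene table. The members and lists were chosen with earlier results of these data known, and calls in the dark favour genes with even replicates. Genes named are the 3, called or lowest-p listed genes, chromosome neighbours and the 5 most like genes. Of 19 defence hormone genes only MYC4 was named alone by a probe set (dark genotype difference 0.13, light response -0.22, neither called). Genes of this and the other lists that are not so named may still have probe sets on the array. No sequences were used here. Alternatives are given in the closing section.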

Additional observations from a re-analysis of the deposited data

How the results depend on the processing

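Arrays carry no counts, so 3 arrays per group and signals near the low-signal limit set the precision. The alternatives run were a replicate block, a pseudocount of 16, no low-signal filter, median centring, quantile normalization and no variance trend. Each array was also left out in turn and, added after the data were seen, replicate 1 of every group. Over all of these, PDF2.1 and AT2G15010 stayed called lower in red light, and neither passed for the genotype in red light. Averaged light responses without 1 array ranged from -4.36 to -3.83 for PDF2.1, from -4.92 to -4.65 for AT2G15010 and from -2.26 to -1.55 for AT1G47540. The last, a description, was -1.47 without replicate 1 of every group.

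Genotype differences in red light without 1 array ranged from 0.97 to 1.82 for PDF2.1, from 1.17 to 2.60 for AT1G47540 and from -0.19 to 0.22 for AT2G15010. The sign for AT2G15010 turned without red-light Ler replicate 1 (0.20), without red-light atbzip16 replicate 2 (0.22) and without replicate 1 of every group (0.073), all uncalled. Differences in the dark without 1 array ranged from 2.16 to 3.04, from 2.31 to 3.12 and from 1.67 to 1.81 in the order PDF2.1, AT1G47540, AT2G15010.

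The probe sets called for the genotype in red light numbered 6, 87 with the replicate block, 461 without replicate 1 of every group and 1 to 25 without 1 array. In the dark they numbered 10, 290 with the block, 641 without replicate 1 of every group, 18 without the low-signal filter, 26 with the pseudocount, 6 after median centring, 3 without the variance trend and 1 to 39 without 1 array. For the averaged light response they numbered 3940, 6124 with the block, 6393 without replicate 1 of every group and 3285 to 4196 without 1 array. Of the other cysteine-rich genes, 2 were called for light without any 1 array, and 0 to 1 for the genotype in red light, the 1 being LCR67, which was also the 1 called without replicate 1 of every group. The block changed no call of PDF2.1 or AT2G15010 in the light or red-light comparisons. The cause of these shifts was not tested.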

Other observations

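Of the cysteine-rich genes named alone by a probe set, 8 were under the low-signal limit and were not tested. These 8 (LCR24, LCR59, LCR66, LCR72, LCR80, PDF1.2, THI2.1 and THI2.2) had geometric mean signals from 5.78 to 33.8. The highest single signal among them was 161.4, in THI2.2, a thionin. THI2.2 read 6.7, 161.4 and 122.8 in red-light Ler and 11.1, 125.5 and 96 in red-light atbzip16, so replicate 1 was low in both genotypes. In the dark it read at most 17.1 in Ler and 62.5 in atbzip16. PDF1.2, the jasmonate- and ethylene-induced defensin, stayed between 3.9 and 77.9 over the 12 arrays, and THI2.1, a jasmonate-induced thionin, between 18.6 and 73.3.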
